A study of Oryza sativa Japonica Group with 6 samples.

Results

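The 175 probe sets whose values differed most between arrays were described in developing rice seeds (Oryza sativa Japonica Group, cultivar not stated in the labels). A probe set is the group of short probes by which an Affymetrix array measures 1 transcript or a few related ones. The members were selected on their deposited values: rice probe sets with a sample SD above 0.01 over all 6 arrays, which 178 of 57194 passed. Probe sets of NAS1, ADC1, SSI, UGE-2 and KIN8B were left out, and NAS1, ADC1 and SSI accounted for the 3 removed; those of UGE-2 and KIN8B lay under the threshold. Because the SD over 6 arrays holds both the difference between the groups and the spread within them, every difference below is a description of how the members vary and not evidence that the treatment changed them.

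In the additional NH4Cl group, 3 arrays held RNA of seeds 15 days after flowering from plants that had ammonium chloride sprayed on their soil at heading, at 400 mg per container. The control group had 3 arrays without this dressing, for which no day after flowering is stated. Plants of both groups were fertilized at planting and on day 37 after germination, and seeds of 6 plants were selected in all. Tissue is labelled as developing seed, although the extraction protocol speaks of pooled seedlings. The labels call the replicates biological but do not tie them to plants. A p-value here sets the difference between the groups against the spread within them. That spread covers only these samples and is perhaps in part technical. The study asked how expression in the seed changes with the additional fertilization.

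Ammonium is a nitrogen source that plants take up from soil and assimilate into glutamine, and nitrogen given around heading is known to raise the protein content of rice grain. A developing grain is made up of the endosperm, which fills with starch and storage protein, the embryo and aleurone, which prepare for drying, and the maternal pericarp, which is green for part of grain filling. Transcripts of all of these tissues enter 1 extract when whole seeds are ground, so fewer cells of a type and less RNA per cell cannot be told apart in these values. The endosperm markers found, 8 of 11 listed, had mean values between 5.36 and 13.2, and GLUB-4 was the lowest. Markers of embryo and aleurone (6 of 9 listed) lay between 7.64 and 12.8 and those of green pericarp (3 of 6 listed) between 7.03 and 11.4.

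Values are given on the scale of the deposited table, taken to be log2, although neither the base nor the summarization is stated. Deposited values were nearly the same on all arrays: the medians of the rice probe sets lay between 5.71845 and 5.7186. Over all rice probe sets the median SD was 2.25e-06. The members thus hold most of what differs between arrays. They made up 0.306% of the rice probe sets and 95.1% of the summed variance of all of them. One probe set alone, Os.16037.1.S1_at, held 40.3%, and the 10 members with the highest SD held 74.6%. None of the 187 control probe sets passed the same SD threshold, their highest SD being 0.00269. A difference in this table was not read as a fold change of RNA. All SDs and p-values below rest on the deposited values, and why these spread so little between arrays was not tested.

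Member SDs ran from 0.0101 to 0.583 with a median of 0.0189, and 10 were above 0.1. Just inside the threshold were LOC107278342, LOC4336798 and LOC4338282, with SDs of 0.0102, 0.0102 and 0.0101. Just outside lay LOC4331608 at 0.00998 and Os.18325.1.A1_at and LOC4326471 at 0.0099. The platform annotation paired 121 members with 1 gene, 1 with several and 53 with none. The 121 stood for 117 genes, of which 18 have a name other than a locus number; the other loci carry no described role in the tables used here and are given by their number.

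The level of a probe set, its mean over the 6 arrays, was not used to choose the members. Their levels ran from 5.47 to 9.97 with a median of 7.20, against a median of 5.72 for all rice probe sets. Such levels were not particular to the members. The median level was 7.31 for rice probe sets with an SD between 0.0001 and 0.001. It was 7.57 between 0.001 and 0.005 and 7.56 between 0.005 and 0.01. With the levels of all rice probe sets split into 4 equal classes, 138 members lay in the highest class, 33 in the next, 4 in the one below and 0 in the lowest. At the other end of the scale no member exceeded 10, a level that 579 rice probe sets (1.01%) did exceed. Reporter control probe sets, which match no rice gene, reached at most 6.07, and 22 members (12.6%) lay below that level, against 66.9% of all rice probe sets. For those 22 the signal need not come from the RNA of the gene they are named for. Of the members given with values below they include PDC1, WRKY76, PRX112, LOC4337207, LOC4335067, LOC9268308, 1 probe set of LOC9267997, OsAffx.4277.1.S1_s_at and OsAffx.121.1.S1_s_at, and of those named beside the threshold above LOC107278342 and LOC4336798. None of the endosperm markers was a member, and the highest SD of any of their probe sets was 4.09e-05, for SBE1.

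**Figure D1:**
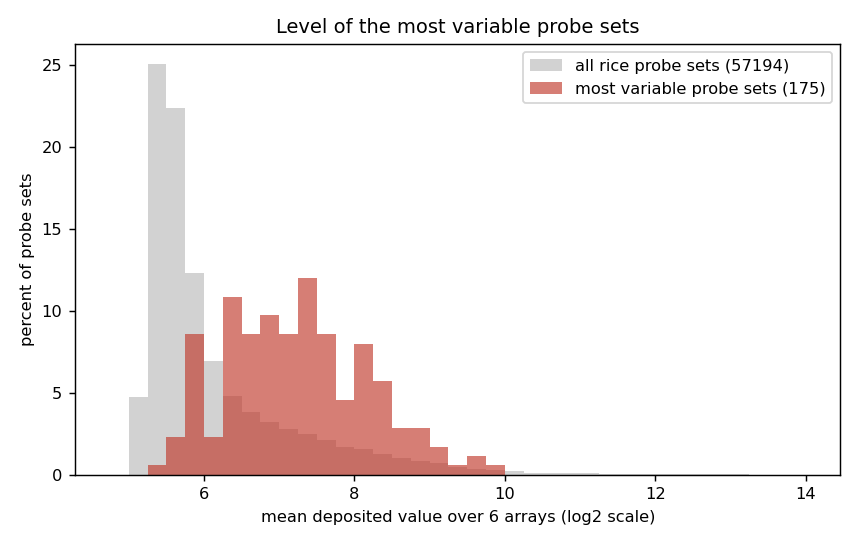
The horizontal axis gives the mean deposited value over 6 arrays (log2 scale) and the vertical axis the percent of probe sets, for all 57194 rice probe sets (grey) and the 175 members (red). The members lie between 5.47 and 9.97, most of them above the bulk of the array and all short of its brightest probe sets. Of the 175, 4 lie below the median level of all rice probe sets.

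Probe sets that can match several transcripts carry an s or x in their ID. The s kind made up 29 members (16.6%) against 4.92% of rice probe sets, and the x kind 18 (10.3%) against 12.5%. Probe sets of the OsAffx series numbered 33 of 175 (18.9%), against 44.6% of the array's rice probe sets.

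Each member's variation was described by shares of its sum of squares over the 6 arrays. The 2 kinds of share used overlap and do not add up to a whole. The treatment share is the part held by the difference between 3 NH4Cl and 3 control arrays, and the single-array share is the part held by 1 array against the mean of the other 5. A member was said to follow treatment, or a single array, when that share was at least 0.8; both cannot hold at once. By this measure 68 of 175 members (38.9%) followed treatment, against 4.65% of all rice probe sets. A single array was followed by 10 members (5.71%), against 9.33% of all rice probe sets. The other 97 (55.4%) followed neither. The 2 groups did not overlap for 105 members (60%), against 17.4% of rice probe sets; nothing is read from these shares, since the selection used the same contrast.

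**Figure D2:**
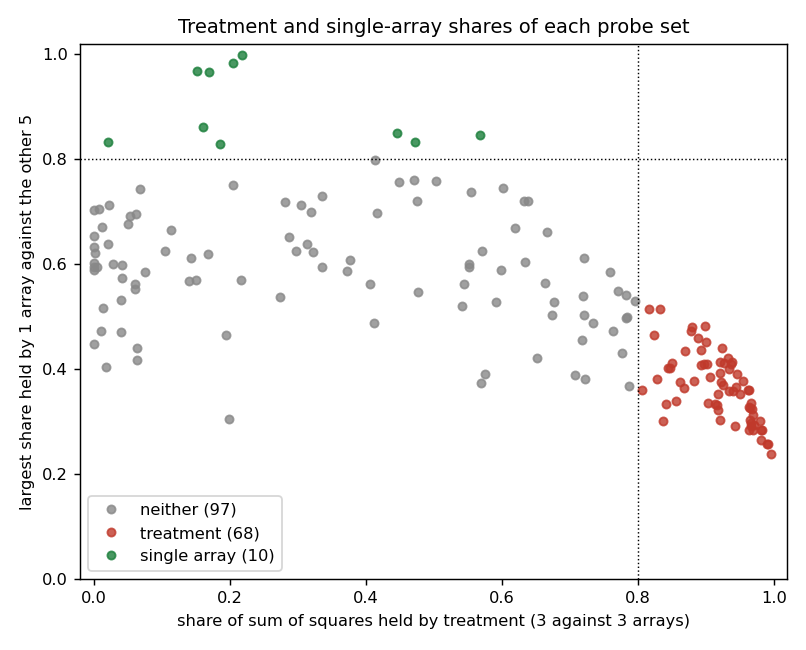
Each point is 1 of the 175 members, placed by its treatment share (horizontal) and its largest single-array share (vertical), both as parts of the sum of squares over 6 arrays; dotted lines mark 0.8. The 68 members that follow treatment reach up to a share of 0.996, and the 97 that follow neither spread over the whole range of treatment shares below the line.

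Across the members direction was balanced: 91 (52%) stood higher with additional NH4Cl, against 50.4% of all rice probe sets. Among the 68 that followed treatment, 29 were higher and 39 lower, with absolute differences from 0.018 to 1.04 and a median of 0.0456. Limma, fitted to all 57194 rice probe sets with Benjamini-Hochberg adjustment, called 1 member at an adjusted p under 0.05, against 0.00699% of rice probe sets. At an unadjusted p under 0.05 stood 93 members, 41 higher and 52 lower, against 11.1% of rice probe sets, and again nothing is read from the count.

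**Figure D3:**
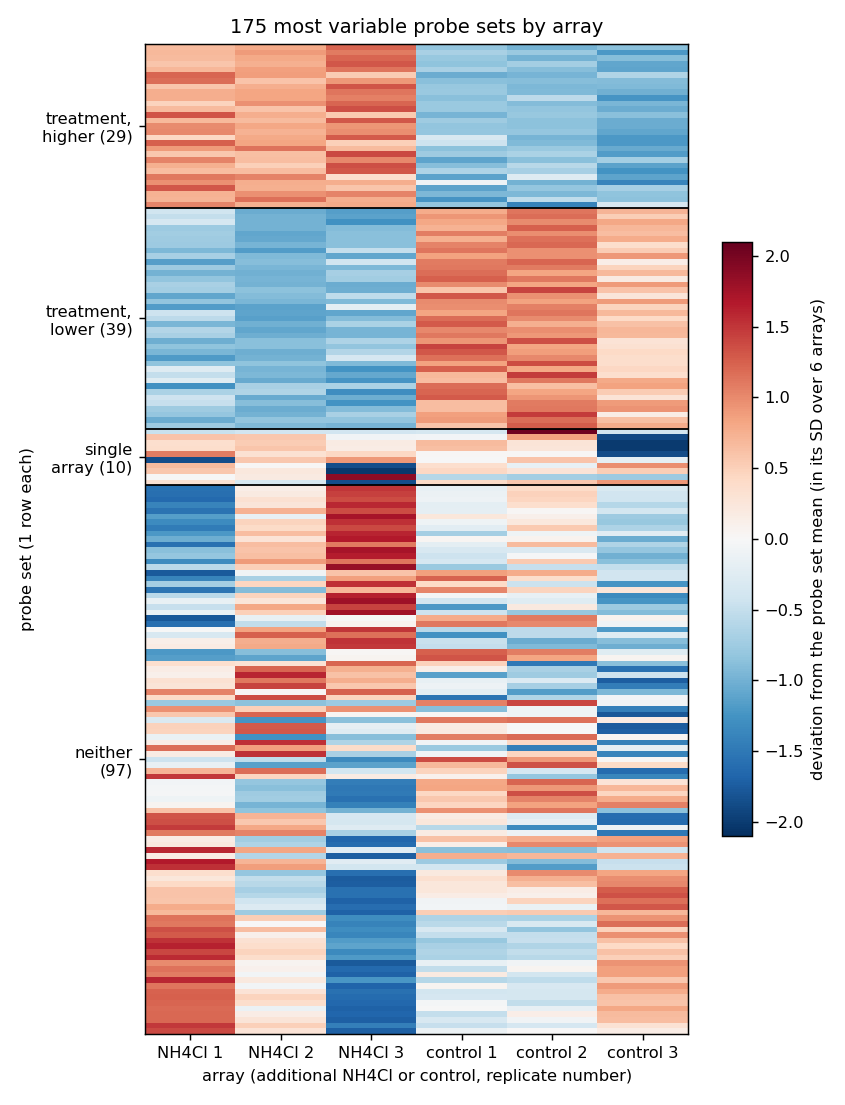
Rows are the 175 members, columns the 6 arrays, and colour is the deviation from the member's own mean in units of its SD over 6 arrays. The first 2 blocks hold the 29 higher and 39 lower members that follow treatment, the third the 10 that follow 1 array, and the last the 97 that follow neither, ordered by NH4Cl replicate 1 minus replicate 3.

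Variation was greatest in Os.16037.1.S1_at, which has no gene in the tables used here. Its values were 6.842, 6.919 and 7.167 on the NH4Cl arrays and 5.975, 5.876 and 5.945 on the control arrays. All 3 NH4Cl arrays lay above all control arrays, and the group means were 6.98 ± 0.17 and 5.93 ± 0.0509 (SD, n = 3 each), a difference of 1.04. The control values lie below the brightest reporter at 6.07, so the difference spans the level at which signal from no rice transcript was seen.

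The second largest SD, 0.352, belonged to LOC4347695, with the opposite direction. It read 6.649, 6.431 and 6.390 with additional NH4Cl and 7.070, 7.196 and 7.051 in control. The groups were separate, with means of 6.49 ± 0.139 and 7.11 ± 0.0789 (SD, n = 3 each) and a difference of -0.62. Replicate 1 of the NH4Cl group was the nearest of its group to the control arrays.

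The members highest with additional NH4Cl after Os.16037.1.S1_at were OsAffx.4277.1.S1_s_at, both probe sets of the cluster Os.20396.1 and LOC4344372. OsAffx.4277.1.S1_s_at read 6.089, 6.128 and 6.162 against 5.855, 5.839 and 5.764 in control, a difference of 0.31. Os.20396.1.A1_at read 6.821, 6.841 and 6.913 against 6.577, 6.546 and 6.561, and Os.20396.1.A1_s_at 7.260, 7.282 and 7.318 against 7.068, 7.038 and 7.009. These 2 share a sequence cluster, so their differences of 0.30 and 0.25 are not independent observations. LOC4344372 read 6.970, 6.999 and 7.089 against 6.741, 6.762 and 6.700. In all 4 the groups were separate and NH4Cl replicate 3 was the highest array. Adjusted p-values by limma for these members lay between 0.110 for Os.20396.1.A1_s_at and 0.152 for LOC4344372, short of the threshold.

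Of the members lowest with additional NH4Cl after LOC4347695, LOC4338117 read 6.726, 6.651 and 6.632 against 6.943, 6.982 and 6.881 in control, a difference of -0.27. LOC4341940, on a probe set of the s kind, read 7.081, 7.002 and 6.969 against 7.222, 7.244 and 7.222, a difference of -0.21. LOC4332584 read 6.298, 6.270 and 6.280 against 6.471, 6.533 and 6.469, a difference of -0.21. LOC4338818 read 7.071, 7.043 and 7.060 against 7.215, 7.207 and 7.182, a difference of -0.14. No group overlapped in these 4 members. In all 4 NH4Cl replicate 1 lay nearest to control within its group, as it did in LOC4347695. LOC4336456 completed the 10 highest SDs, with 7.047, 7.012 and 6.976 against 6.812, 6.817 and 6.854, a difference of 0.18.

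**Figure D4:**
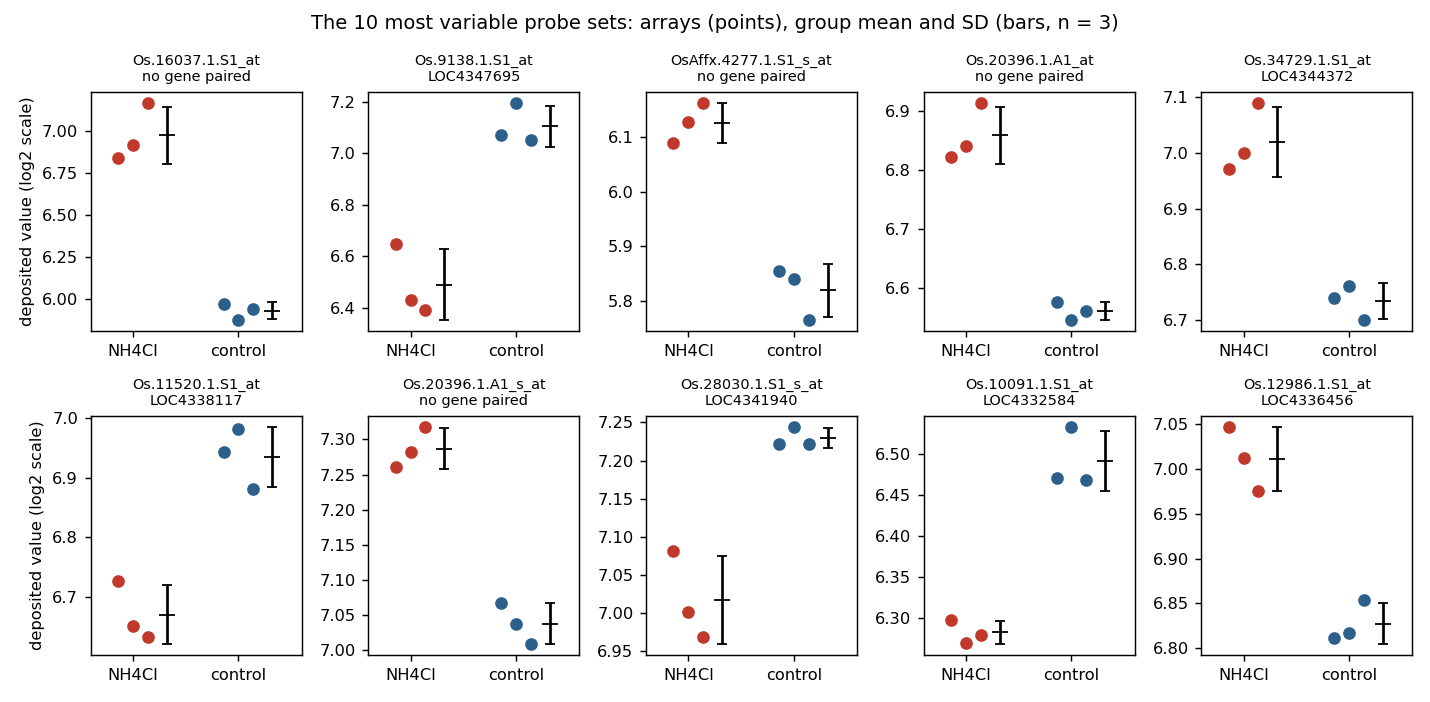
Panels show the 10 members with the highest SD. Points are the single arrays, in red for additional NH4Cl and blue for control, and the black bars beside them give the group mean and SD (n = 3); the vertical axis is the deposited value on the log2 scale and differs between panels. In all 10 the groups are separate, and Os.16037.1.S1_at has the widest gap, 1.04.

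The member with the smallest p was not among those with the largest differences. LOC4337207 read 5.690, 5.688 and 5.688 with additional NH4Cl and 5.727, 5.724 and 5.725 in control. The difference of -0.0366 (SE 0.00117) equals -25.6 within-group SDs, and limma called it with an adjusted p of 0.0458. With any 1 array left out it did not pass, at adjusted p from 0.0995 to 0.175. The next members by p were LOC4337791, Os.26511.1.S1_at, LOC4327813, MPK14 and ACT2, with adjusted p by limma between 0.0675 and 0.0804. These 5 passed, at 0.0418 to 0.0487, when limma was fitted without the probe sets under the median level, a setting in which LOC4337207 was not tested. They did not pass with 1 array left out, at 0.0995 to 0.272, or with the replicate block, at 0.243 to 0.350. LOC4337791 read 6.465, 6.457 and 6.462 against 6.387, 6.386 and 6.378, and LOC4327813 read 7.216, 7.206 and 7.215 against 7.151, 7.151 and 7.141. Both were higher on every NH4Cl array than on any control array.

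Among the 18 named genes 5 followed treatment, 0 higher and 5 lower with additional NH4Cl, 0 followed a single array and 13 followed neither. Groups were separate for 8 of the 18, 6 lower and 2 higher, against 17.4% of rice probe sets; the choice of members bears on these counts as above. None of the 18 passed limma's adjusted threshold, and their values follow by role.

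Of genes of the cytoskeleton, ACT2, an actin, read 9.087, 9.074 and 9.066 with additional NH4Cl and 9.172, 9.178 and 9.176 in control. The groups were separate, and the difference of -0.0995 (SE 0.00649) equals -12.5 within-group SDs (adjusted p of 0.0804 by limma). FH16, a formin, of a family that nucleates actin filaments, read 6.986, 6.983 and 6.985 against 7.003, 7.008 and 7.006, a difference of -0.0209 (SE 0.00181; adjusted p of 0.101 by limma). TUB4, a beta-tubulin of microtubules, had a smaller treatment share of 0.57: 7.155, 7.160 and 7.175 against 7.194, 7.191 and 7.170. In TUB4 NH4Cl replicate 3 and control replicate 3 cross, so its groups overlap, while ACT2 and FH16 were lower on all 3 NH4Cl arrays.

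MPK14, a mitogen-activated protein kinase of a family that relays stress and growth signals, read 8.291, 8.281 and 8.279 against 8.342, 8.338 and 8.340 in control. Its difference of -0.0563 (SE 0.00384) equals -12 within-group SDs, and the adjusted p by limma was 0.0804. WRKY76, a transcription factor of the WRKY family, read 5.801, 5.793 and 5.793 against 5.822, 5.817 and 5.809, a difference of -0.0206. The groups of both genes were separate, all NH4Cl arrays being lower.

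PDC1, pyruvate decarboxylase, opens the ethanol branch of fermentation. It read 5.737, 5.724 and 5.762 against 5.854, 5.844 and 5.820, a difference of -0.0982 (SE 0.0149) with separate groups. A second member from the same array cluster, annotated as LOC4325311, stood at -0.0398. SUS3, a sucrose synthase that splits sucrose at the entry to starch and cell wall synthesis, followed neither. It read 8.215, 8.264 and 8.292 against 8.339, 8.335 and 8.285, and NH4Cl replicate 1 was the lowest array while NH4Cl replicate 3 lay above control replicate 3.

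Cell wall genes were represented by BC1L6 and EXPB3. BC1L6, a COBRA-like protein related to a gene of cellulose deposition in the culm, read 8.269, 8.248 and 8.226 against 8.280, 8.284 and 8.286. Its groups were separate, but the spread among NH4Cl arrays was large and the treatment share 0.666. EXPB3, a beta-expansin that loosens cell walls, read 8.726, 8.796 and 8.838 against 8.775, 8.787 and 8.747, with a treatment share of 0.0601. Both its highest and its lowest array were NH4Cl arrays, replicates 3 and 1.

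Genes of stress and defence include enzymes that handle peroxide, a pathogenesis-related protein and dehydrins. CAT-A, a catalase that breaks down hydrogen peroxide, read 6.243, 6.265 and 6.251 against 6.225, 6.231 and 6.235, a difference of 0.0227 with separate groups. PRX112, a class III peroxidase, read 6.025, 6.097 and 6.104 against 6.057, 6.086 and 6.040, so its NH4Cl arrays surrounded the controls. PBZ1, a pathogenesis-related protein induced by the defence activator probenazole, read 8.396, 8.415 and 8.414 against 8.385, 8.394 and 8.397. Only NH4Cl replicate 1 of PBZ1 lay within the range of control.

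RAB16B and RAB16C encode dehydrins, proteins that accumulate with abscisic acid as the embryo prepares to dry. RAB16B read 9.312, 9.303 and 9.278 against 9.290, 9.284 and 9.301, and RAB16C 7.662, 7.645 and 7.604 against 7.636, 7.627 and 7.649. In both the highest array was NH4Cl replicate 1 and the lowest NH4Cl replicate 3, and the treatment shares were 0.0631 and 0.00039. These genes lie close together, with 2 genes between them in the gene order of assembly ASM3414082v1.

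The remaining named members each read as follows. The translation initiation scaffold eIF4G, on a probe set of the s kind, read 7.266, 7.208 and 7.192 against 7.187, 7.137 and 7.105, a difference of 0.0789 with groups that were just separate. MGD3, which makes the galactolipid of plastid membranes, read 8.242, 8.228 and 8.210 against 8.231, 8.230 and 8.249. The auxin efflux carrier PIN4 read 6.284, 6.284 and 6.294 against 6.286, 6.262 and 6.269. OsC3H1 read 8.351, 8.382 and 8.394 against 8.399, 8.398 and 8.376. The groups of MGD3, PIN4 and OsC3H1 overlapped.

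**Figure D5:**
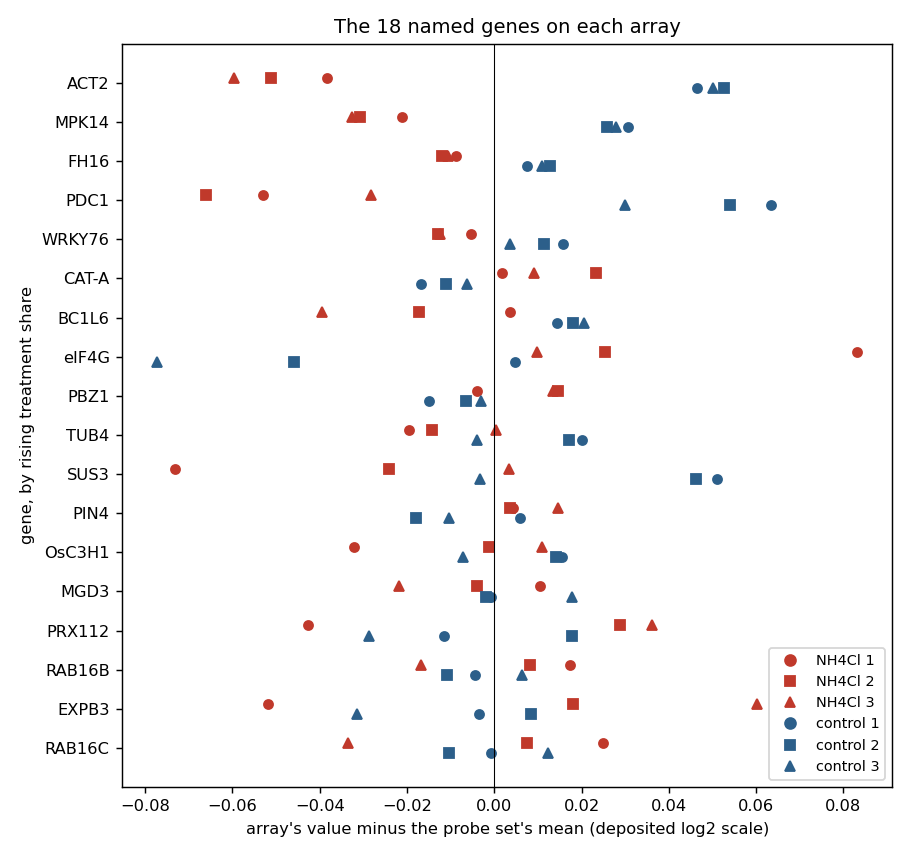
Each row is 1 of the 18 named genes, ordered by treatment share, and each point an array's deposited value minus the mean of its probe set (log2 scale), red for additional NH4Cl and blue for control, with circles, squares and triangles for replicates 1, 2 and 3. ACT2, MPK14, FH16, PDC1 and WRKY76 have all red points below all blue points; at the bottom, NH4Cl replicates 1 and 3 lie at the 2 ends of RAB16B, RAB16C, PRX112 and EXPB3.

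Classes were set by the start of the gene name alone, so they do not hold every gene of a role. Of 3194 rice probe sets with a named gene, 1995 fell in no class used here, and these held 6 of the 18 named members. Among the 6 are PIN4, FH16 and PBZ1, described above as an auxin carrier, a formin and a pathogenesis-related protein. Among the rest, members made up 4 of 159 stress and defence probe sets, 2 of 103 cell wall ones, 2 of 115 of cytoskeleton and division, 1 of 53 of translation and 1 of 101 of seed reserves and sugar. They made up 1 of 167 kinase and phosphatase probe sets, 1 of 315 of transcription factors and 0 of 186 of transporters. At these counts no class can be called particular to the members.

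Of the 10 members that followed a single array, 4 followed NH4Cl replicate 3, 4 control replicate 3, 1 control replicate 2 and 1 NH4Cl replicate 1. The clearest was LOC9268308, on a probe set of the s kind, which read 5.545 on control replicate 2 and between 5.450 and 5.453 on the other 5 arrays, a single-array share of 0.999. The other probe set of this gene had an SD of 0.000153. OsAffx.121.1.S1_s_at read 5.538 on NH4Cl replicate 3 and 5.573 to 5.579 elsewhere. LOC9271026 read 6.449 on that array and 6.418 to 6.429 elsewhere.

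Control replicate 3 was low in Os.26688.1.S3_s_at, at 7.567 against 7.597 to 7.604 elsewhere, and in OsAffx.32335.1.S1_x_at, at 7.315 against 7.339 to 7.344. LOC4334518 read 8.625 on NH4Cl replicate 1 and 8.722 to 8.786 on the other arrays. In 4 of the 10 the groups did not overlap even though 1 array held the variation, so separation of 3 against 3 arrays does not by itself mark a treatment pattern in these values. Probe sets of the s or x kind made up 6 of the 10, 15 of the 68 that followed treatment and 26 of the 97 that followed neither; over all rice probe sets the s kind made up 4.92% and the x kind 12.5%.

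Among the 97 members that followed neither, NH4Cl replicate 3 was most often the array with the largest single-array share, in 47 (48.5%), against 21.2% of all rice probe sets. Over all 175 members it was that array in 41.7%, and in 42.3% of the 208 rice probe sets with an SD between 0.005 and 0.01. NH4Cl replicate 1 had the largest share in 24 of the 97 (24.7%), near its share of 21.1% of all rice probe sets, and each of the other 4 arrays in 11 or fewer. For 38 of the 97 the treatment share was under 0.2, and in 31 of these 38 NH4Cl replicates 1 and 3 were the 2 extreme arrays, replicate 1 being the highest in 20 and replicate 3 in 11. How often this holds for other rice probe sets with so low a treatment share was not computed. Over all 175 members the SD among NH4Cl arrays exceeded that among control arrays in 115 (65.7%), against 55.4% of rice probe sets.

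Over all members, NH4Cl replicates 1 and 3 lay at the 2 ends in 34 (19.4%), against 9.85% of rice probe sets. With an SD between 0.005 and 0.01 it was 24.8% of 210, a count that, unlike the 208 above, keeps UGE-2 and KIN8B. The median gap between these arrays was 0.0526 and the median span of the 3 controls 0.0183, which lies inside that gap by the choice of the 34. Largest among them were Os.55322.1.S1_at, which read 6.161, 6.372 and 6.432 with additional NH4Cl and 6.286, 6.307 and 6.268 in control, and LOC4348110, which read 7.459, 7.610 and 7.733 against 7.567, 7.618 and 7.531. Replicate 1 was the lowest array in both, and controls lay inside the span of the NH4Cl arrays.

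The named members at the 2 ends were RAB16B and RAB16C, higher on replicate 1, and EXPB3 and PRX112, higher on replicate 3. Tissue markers were also compared between these arrays by sign. All 6 embryo and aleurone markers, among them RAB16B and RAB16C, were higher on NH4Cl replicate 1 than on replicate 3. All 3 pericarp markers were lower, while 5 of 8 endosperm markers were higher. The mean level of the embryo and aleurone list was 10.564 on NH4Cl replicate 1, 10.560 on replicate 2 and 10.549 on replicate 3, and from 10.554 to 10.560 on the controls. That mean includes RAB16B and RAB16C, members selected for their variation, which were 0.0342 and 0.0585 higher on replicate 1 than on replicate 3. It is therefore not a reading apart from the members. The mean level of the pericarp list ran from 9.6744 to 9.6756 on NH4Cl arrays and from 9.6737 to 9.6750 on controls, and that of the endosperm list was 11.708 on every array. Each marker was read on 1 probe set. On these, outside RAB16B and RAB16C, the gap between replicates 1 and 3 was at most 0.000184 for an embryo and aleurone marker (RAB21). For TIP3-1 it was 3.6e-07. RAB21 read 12.83029 and 12.83011 on NH4Cl replicates 1 and 3. Its controls ran from 12.83012 to 12.83033, so the NH4Cl gap is no wider than a spread seen without the dressing. The widest gap for a pericarp marker (RBCS) was -0.00278. Other probe sets of RAB21 and of the pericarp marker CAB2R had SDs of up to 0.000226 and 0.00295, above those of the probe sets used. The part of these tissues in the members' values was not tested.

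A gene with several probe sets offers readings that the selection did not use. Of the 121 members with 1 gene, 33 had at least 1 other probe set for the same gene, giving 43 pairs with a probe set outside the members. The difference between groups had the same sign in 37 of 43 pairs, but the other probe sets varied far less, with a median SD of 4e-05 and a median ratio of 424 between the SDs. For members that followed treatment the sign matched in 14 of 16 pairs. In 8 of 16 the other probe set also had separate groups, against 17.4% of all rice probe sets. How often signs match between probe sets of 1 gene elsewhere on the array was not computed. The pairs are not independent. For LOC4341940 and LOC9267997 the same other probe set was counted once for each member of the gene. Several of the 16 pairs belong to LOC4335780 alone. All pairs rest on the same 6 arrays, so nothing is read from these counts.

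LOC4341940 was measured by 3 probe sets, 2 of them members, with differences of -0.21, -0.0332 and -0.00432, each with separate groups. LOC4335780, a member at -0.0811, had 4 other probe sets, all lower, at -0.0159, -0.000592, -1.63e-05 and -4.23e-07. LOC4342361, at 0.058, had 2 others at 0.0145 and 2.62e-05. By contrast LOC4335067, at 0.114, had 3 others at 2.7e-06, 2.01e-06 and -5.37e-06, and the members CAT-A and TUB4 each had 2 others, at 0.000870 and 0.00354 for CAT-A and at 2.52e-07 and -2.7e-05 for TUB4. For eIF4G, 3 other probe sets stood at 2.38e-05, 0.000828 and 4.15e-05. Probe sets of 1 gene thus differed widely in the size of the difference they gave.

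Members also came in pairs from the same array cluster. There were 9 such pairs, and the members of each pair had differences of the same sign in 9 of 9 and shared their highest and their lowest array in 6 of 9. LOC4348123, LOC4344438 and LOC9267997 were each measured by 2 members, all following neither pattern, with NH4Cl replicates 1 and 3 at the ends. In gene order, 4 pairs of member genes lay within 10 positions of each other, RAB16B and RAB16C being 1 of them. LOC4326273 and LOC4325167, with 2 genes between them, both followed treatment, at -0.0322 and -0.0298.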

How the data were processed

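The authors deposited 1 table with a value for each of 57381 probe sets on 6 Affymetrix rice arrays. Their range fits log2 expression, and the deposited values were treated as such; no label or header names the log base, summarization or normalization. Per the labels' protocols, an RNeasy kit gave the RNA, from which biotinylated cRNA was made. The number of arrays limits the precision, and no 2 arrays shared more than 41 values.

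The 187 control probe sets were left out. SDs, sums of squares and counts were computed with Python 3.11.15 and pandas 2.3.3 on values as deposited, without a filter. Additional NH4Cl minus control was fitted to 57194 rice probe sets with lmFit and eBayes of limma 3.58.1 (R 4.3.3), two-sided and without a block, and adjusted by Benjamini-Hochberg at 0.05. Printed SEs are unmoderated. Scripts were tested on simulated data. Names come from the platform annotation by gene ID and a gene table of ASM3414082v1, with a synonym where the symbol is a locus number.

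The members, lists and classes were chosen with earlier results of these data known. Named were all members with a gene name, the 10 with the highest SD, up to 5 per direction following treatment, up to 2 per array, called members and those beside the threshold; other genes were named after their values were seen. Alternatives were other scalings, a filter on level, other SD and share thresholds, a within-group SD, s and x probe sets left out, eBayes with trend and robust, the replicate block and each array left out.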

Additional observations from a re-analysis of the deposited data

How the results depend on the processing

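With limma 4 rice probe sets were called as deposited, 2 with the replicate block, 2 with trend and robust moderation, 32 without probe sets under the median level, 51354 with arrays centred on their medians, 4079 after quantile normalization, and 0 to 1 with 1 array left out. Of the calls 0 were higher and 4 lower as deposited, 12 and 20 with the level filter, 2082 and 1997 after quantile normalization, and 50499 and 855 after median centring. Centring shifts all probe sets of an array by the same amount. As deposited, array medians were 5.71845 to 5.71846 with additional NH4Cl and 5.71852 to 5.7186 in control. The median absolute difference of rice probe sets was 1.41e-06. With centring ACT2 moved from -0.0995001 to -0.0993776 and LOC4327813 from 0.0645131 to 0.0646356. No treatment result is read from the counts after centring or quantile normalization, and their cause was not tested. Among the calls listed were 1, 1, 1, 5, 105 and 52 members, and 0 without any 1 array. All 175 members kept their direction under quantile normalization and median centring, and 154 to 172 with 1 array left out. Under centring this was bound to hold, since its common shift is smaller than the smallest absolute difference of a member, 0.000214. Same-numbered arrays deviated together with correlations of -0.0616, 0.0449 and -0.0775 over rice probe sets, so the numbers were not taken to pair samples.

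An SD threshold of 0.005 gave 383 members, of which 129 followed treatment, 24 followed a single array and 204 had separate groups; at 0.02 these counts were 83, 37, 3 and 55. Members chosen by the pooled within-group SD, which does not hold the treatment difference, numbered 118, with 28 following treatment and 49 with separate groups. Nothing is read from these counts. Without s and x probe sets 4 followed a single array. A share of at least 0.7 gave 27 for a single array, and 0.9 gave 45 for treatment and 4 for a single array. With 1 array left out there were 151 (without NH4Cl replicate 3) to 182 members, 64 to 91 following treatment, 12 to 40 following a single array and 104 to 130 with separate groups. The 40 came without NH4Cl replicate 2.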

Other observations

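Across all rice probe sets outside those left out, the share following treatment was higher in classes of higher SD. It was 2.11% of 18532 with an SD up to 1e-06, 12.9% of 4520 between 0.0001 and 0.001, 29.3% of 208 between 0.005 and 0.01, 33.7% of 92 between 0.01 and 0.02, 28% of 50 between 0.02 and 0.05, and 69.7% of 33 above 0.05. Since the SD holds the treatment difference, these shares describe the table and test nothing.

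Choosing by the pooled within-group SD leaves the treatment difference out of the choice. Of the 118 probe sets above 0.01 by that measure 113 were members. By limma 41 of the 118 stood at an unadjusted p under 0.05, against 11.1% of rice probe sets, and 0 passed the adjusted threshold. Nothing is read from this count, since nearly all of these are the members described above, on the same arrays. Of the 68 members that followed treatment 28 passed the within-group SD threshold, so the rest are members through the difference between groups. Named among the rest are ACT2, MPK14, FH16 and WRKY76, whose within-group SDs were 0.00794, 0.0047, 0.00221 and 0.00533.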
